A study of Mus musculus with 4 samples.

Results

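Chromatin accessibility at the genes of 7 regulators of hematopoietic stem cell self-renewal, Meis1, Mecom, Prdm16, Hlf, Mycn, Msi2 and Hmga2, was examined peak by peak in single-cell ATAC-seq of long-term hematopoietic stem cells (LT-HSCs). ATAC-seq counts insertions of the Tn5 transposase, which cuts where DNA is not wrapped in compact chromatin. Every peak that overlapped a member gene or the 5000 bp before it was taken, which gave 236 of the 93513 peaks in the table. Of these, 9 lay within 1000 bp of a protein-coding start of their own gene and are called promoter peaks, 211 were intronic, 13 overlapped an exon and 3 lay upstream.

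The table is the count table that the labels give for 2 samples, CLCA3A1high and CLCA3A1low LT-HSCs of C57BL/6JRj mice aged 22 to 28 months. The sort used an antibody against CLCA3A1 on the cell surface, and no genotype or treatment other than age and sort is labelled. Each sample was 10000 sorted cells, 2500 from each of 4 mice, so mice within a sample cannot be told apart and each group has 1 sample. The series also holds young LT-HSCs of mice aged 3 to 4 months and old LT-HSCs of mice aged 22 to 28 months, which were not used here.

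The cells of the table carried 1 of 2 barcode endings, referred to as barcode set 1 (818 cells, 13050952 counts) and barcode set 2 (636 cells, 9820094 counts). No label says which sample either set is. Ratios between the sets are therefore given without a group, with no test, and with 95% intervals for counting error only. Because 88.7% of the values above 0 were even, since both ends of a fragment are usually counted, these intervals are too narrow. Median counts per cell were 13358.5 and 12755, and no barcode sequence was shared between the sets.

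The label LT-HSC was checked against fixed marker genes. Of the 8 LT-HSC markers reported, 7 had peaks and Ly6a had none. Their summed level was 372 CPM (counts scaled to the total of each set and multiplied by 1e+06) in set 1 and 306 in set 2, with Procr and Slamf1 past 1.5-fold higher in set 1. Fgd5 went the other way within 1.5-fold, with 51.0 CPM in set 1 and 64.0 in set 2. The 3 progenitor markers Flt3, Cd34 and Cd48 summed to 112 CPM in set 1 and 203 in set 2, with Flt3 and Cd34 past 1.5-fold higher in set 2. Cd3e and Alb, which mark T cells and liver cells, had no peak. The study defines LT-HSCs by a gate without surface CD34 and CD135, the products of Cd34 and Flt3. Across the 6 lists of erythroid, megakaryocyte, myeloid, B cell, T cell and non-hematopoietic markers, all other genes had peaks. Summed levels of these lists ranged from 63.0 to 210 CPM in set 1 and from 64.8 to 178 in set 2. These lists hold 3 or 4 genes each against 8 for LT-HSCs, so the sums do not rank the lists. In set 1 the B cell gene Ebf1, at 89.5 CPM, lay between the LT-HSC markers Procr at 11.9 and Kit at 109. The check therefore does not decide the label. The sets did differ at genes that separate stem cells from early progenitors, and the part of this in the ratios below was not tested.

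Stem cells self-renew when a division keeps at least 1 daughter undifferentiated, and the 7 regulators act at different steps of that decision. Meis1 is a TALE homeodomain factor that binds DNA with PBX and HOX proteins. Mecom and Prdm16 encode zinc finger proteins with PR domains, Hlf a bZIP factor of the PAR family, and Mycn a MYC family factor that binds DNA with MAX. Msi2 encodes an RNA-binding protein that controls translation, and Hmga2 a chromatin protein that binds AT-rich DNA. In blood these genes are known for their activity in stem cells, and several are activated in leukemia.

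The sequences that carry the comparison are those of the 6 peaks that had at least 100 counts and differed past 2-fold between sets after 1 CPM was added to each. The central 300 bases of each are shown on the forward strand of GRCm38. Capitals mark any match, on either strand, to the words GAGGAAGT of PU.1, ACATTCCA of TEAD factors, TGTGGTTT of RUNX factors and AGATAAGA of GATA factors. They also mark TTACGTAA and TTATGTAA, bound by HLF and other PAR bZIP factors, TGATTGAC, bound by PBX with MEIS, and the shorter MEIS word TGACAG. The MYC E-box, to which MYC family proteins bind together with MAX, was searched as CACGTG. The word of AP-1, a dimer of FOS and JUN proteins that is active in many cell types, was searched as TGACTCA.
Meis1 intron 6, chr11:19005947-19006246: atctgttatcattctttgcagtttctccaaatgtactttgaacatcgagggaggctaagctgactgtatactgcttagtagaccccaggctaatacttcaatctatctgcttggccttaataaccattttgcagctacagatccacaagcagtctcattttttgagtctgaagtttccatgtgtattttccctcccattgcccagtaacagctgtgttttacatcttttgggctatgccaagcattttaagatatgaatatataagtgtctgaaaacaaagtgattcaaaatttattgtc
Mecom intron 1, chr3:30083546-30083845: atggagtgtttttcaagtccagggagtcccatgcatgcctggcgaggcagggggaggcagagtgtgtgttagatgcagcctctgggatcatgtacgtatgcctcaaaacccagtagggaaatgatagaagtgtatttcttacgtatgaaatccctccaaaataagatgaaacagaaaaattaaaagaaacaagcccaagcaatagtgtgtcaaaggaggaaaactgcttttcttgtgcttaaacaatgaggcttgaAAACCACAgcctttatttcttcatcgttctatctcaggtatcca
Prdm16 intron 4, chr4:154359644-154359943: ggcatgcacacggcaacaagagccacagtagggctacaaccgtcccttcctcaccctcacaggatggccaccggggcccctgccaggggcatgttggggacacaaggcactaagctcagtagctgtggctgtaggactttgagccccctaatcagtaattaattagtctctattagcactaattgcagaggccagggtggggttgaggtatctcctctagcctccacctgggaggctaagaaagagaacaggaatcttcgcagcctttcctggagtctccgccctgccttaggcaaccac
Prdm16 upstream, chr4:154640519-154640818: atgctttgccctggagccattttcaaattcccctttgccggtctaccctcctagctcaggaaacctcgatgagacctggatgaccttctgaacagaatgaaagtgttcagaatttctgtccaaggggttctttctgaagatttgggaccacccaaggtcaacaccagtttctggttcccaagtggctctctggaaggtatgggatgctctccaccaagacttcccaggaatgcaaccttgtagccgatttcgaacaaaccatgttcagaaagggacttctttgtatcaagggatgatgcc
Hlf intron 2, chr11:90381768-90382067: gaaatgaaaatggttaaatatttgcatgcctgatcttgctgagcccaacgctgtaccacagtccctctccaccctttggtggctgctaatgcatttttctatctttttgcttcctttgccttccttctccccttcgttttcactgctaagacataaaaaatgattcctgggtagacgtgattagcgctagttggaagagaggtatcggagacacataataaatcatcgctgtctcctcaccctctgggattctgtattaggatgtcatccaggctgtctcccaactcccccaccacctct
Msi2 intron 5, chr11:88602454-88602753: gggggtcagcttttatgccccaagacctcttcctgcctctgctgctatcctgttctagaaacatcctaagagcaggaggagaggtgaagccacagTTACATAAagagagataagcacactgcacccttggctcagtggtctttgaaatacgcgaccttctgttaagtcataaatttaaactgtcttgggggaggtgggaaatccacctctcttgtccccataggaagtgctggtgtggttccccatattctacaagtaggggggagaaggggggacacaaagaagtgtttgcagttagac

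Of the 6 windows, 2 held a word. The Mecom window held the RUNX word, reading AAACCACA on the forward strand, at base 257, and the Msi2 window held a PAR bZIP word, reading TTACATAA, at base 96. Over all peaks outside promoters, the central 300 bases held the RUNX word in 5.64% and a PAR bZIP word in 1.36%. The other 4 windows held none of the letters searched. Outside the windows, the Prdm16 upstream peak and the Hlf peak did hold MYC E-box and MEIS words. A match is a run of letters and not a bound site.

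The promoters of Prdm16 and Hlf are shown beside the differing peaks of the same genes. Those of Meis1, Mecom, Msi2 and Mycn overlap annotated UTRs and are not printed. The MEIS word was in a Mecom promoter at an inner start, as in 15.9% of 32817 RefSeq promoters, and the MYC E-box was in all 3 Msi2 promoters, which overlap each other, as in 6.02%. The printed promoters are the 250 bases before the RefSeq start (GRCm38.p6), on the reverse strand, which is the strand of both genes. Neither held any of the words.
Prdm16 promoter, chr4:154636874-154637123: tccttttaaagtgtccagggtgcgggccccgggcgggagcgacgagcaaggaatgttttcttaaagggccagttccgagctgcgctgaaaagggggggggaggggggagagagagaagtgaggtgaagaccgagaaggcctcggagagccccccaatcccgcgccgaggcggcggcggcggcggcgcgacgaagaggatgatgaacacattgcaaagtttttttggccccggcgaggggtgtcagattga
Hlf promoter, chr11:90390918-90391167: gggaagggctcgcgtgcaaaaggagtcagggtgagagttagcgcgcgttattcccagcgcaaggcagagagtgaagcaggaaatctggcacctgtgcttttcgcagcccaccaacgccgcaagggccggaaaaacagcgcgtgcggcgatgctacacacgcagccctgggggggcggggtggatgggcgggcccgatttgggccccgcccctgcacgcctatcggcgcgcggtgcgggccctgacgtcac

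Summed over each locus, no member differed past 1.5-fold between sets. This was 0 of 7 loci, against 9.90% of the 16965 protein-coding loci with at least 20 counts. By CPM the members ranked from the 85.0th (Mycn) to the 99.8th percentile (Mecom) of these loci. Ratios scatter more at low counts and the background was not matched for counts, so the 0 is not read as a result about the members. The log2 ratio of set 1 over set 2 ranged from -0.14 in Meis1 to 0.32 in Mycn, against a median of 0.00 and a 5th to 95th percentile of -0.55 to 0.62 over all loci. The reference genes Gapdh and Actb both stood at -0.06.

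The TALE factor Meis1 was the member whose locus leaned toward set 2. Its 36 peaks summed to 288 CPM (279 to 298) in set 1 and 318 CPM (307 to 330) in set 2, a log2 ratio of -0.14 (-0.21 to -0.07). The 2 counting intervals did not overlap. At equal depth the log2 ratio was -0.13 (-0.27 to 0.00057), an interval that just included 0. Its promoter peak differed less, with 74.2 and 76.6 CPM and a log2 ratio of -0.05 (-0.19 to 0.09).

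The PR domain genes leaned the other way. Mecom, with 52 peaks, summed to 392 CPM (381 to 403) in set 1 and 332 CPM (321 to 344) in set 2, a log2 ratio of 0.24 (0.17 to 0.30). Prdm16, with 50 peaks, summed to 362 CPM (352 to 372) and 313 CPM (302 to 325), a log2 ratio of 0.21 (0.14 to 0.27). For Prdm16 the difference did not hold at equal depth, where the log2 ratio was 0.08 (-0.04 to 0.21). Summed over promoter peaks the log2 ratios were 0.18 in Mecom and 0.20 in Prdm16, against 0.26 and 0.21 over their other peaks, although the Mecom promoter peaks did not all lean the same way.

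Mycn had 1 peak, a promoter peak of 6560 bp at chr12:12936591-12943150 that covered 60.6% of its short locus. It held 110 CPM (104 to 115) in set 1 and 87.6 CPM (81.8 to 93.6) in set 2, and its log2 ratio of 0.32 (0.20 to 0.45) was the largest of the 7 loci. When each cell was counted once, it was 0.19 (-0.05 to 0.42). The bZIP gene Hlf and the chromatin gene Hmga2 had intervals that included 0, at 0.10 (-0.01 to 0.22) and 0.09 (-0.02 to 0.20). The interval of the RNA-binding gene Msi2 also included 0, at -0.03 (-0.09 to 0.04). Whether these 3 intervals included 0 depended on which cells were counted. Without cells over 3 times the median counts the log2 ratio was 0.19 (0.06 to 0.32) for Hlf, 0.15 (0.04 to 0.27) for Hmga2 and, with the opposite sign, 0.081 (0.0068 to 0.16) for Msi2. At equal depth it was 0.13 (-0.09 to 0.36), 0.25 (0.035 to 0.46) and 0.070 (-0.062 to 0.20). Both Hlf values lay within its main interval, as did the Hmga2 value without the deepest cells. The other 3 values lay outside.

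**Figure D1:**
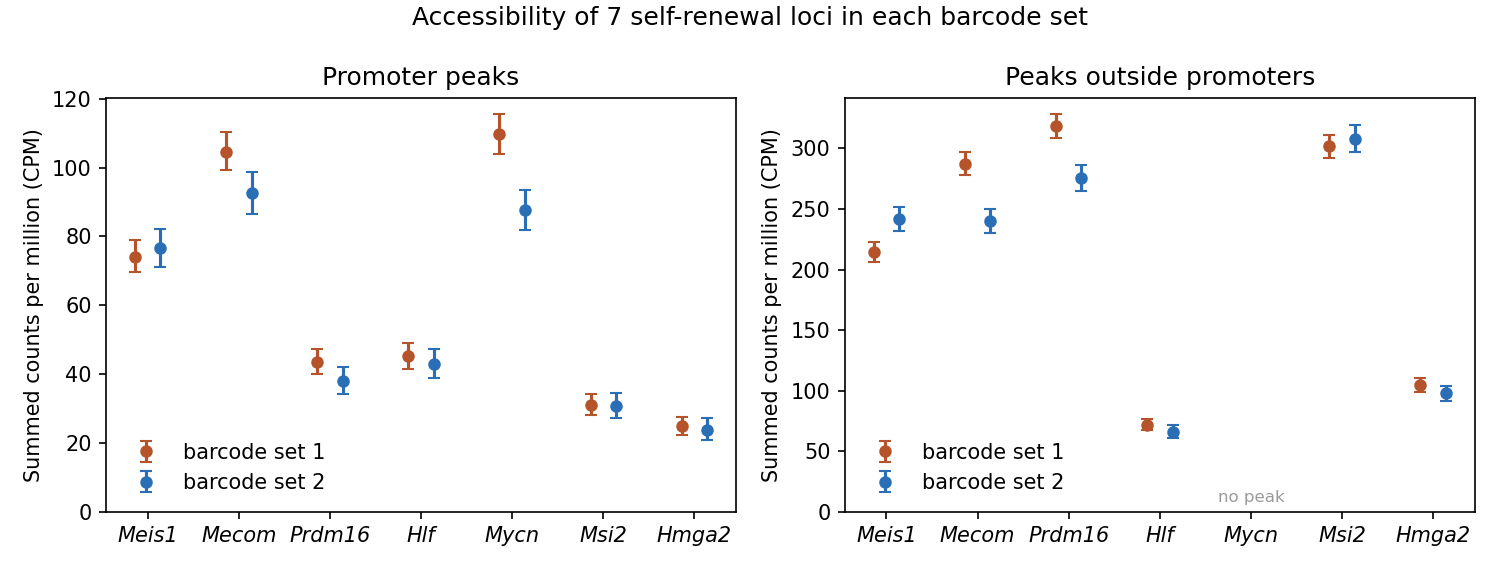
Summed CPM of the promoter peaks (left) and of all other peaks (right) of each gene, in barcode set 1 and barcode set 2. Points are single values and bars are exact 95% Poisson intervals, which cover counting error only. Mycn had no peak outside its promoter, and Mecom and Prdm16 were higher in set 1 on the right while Meis1 was higher in set 2.

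Levels of different genes were compared per kb of peak. Over the whole locus in set 1, Mycn was highest with 16.7 CPM per kb of peak (15.9 to 17.6), followed by Mecom with 9.46 (9.20 to 9.72) and Hmga2 with 8.58 (8.17 to 8.998). Prdm16 with 8.14 (7.91 to 8.37), Meis1 with 7.22, Hlf with 6.996 and Msi2 with 6.32 came next. The neighbours Hmga2 and Prdm16, and Meis1 and Hlf, did not differ beyond their counting intervals in set 1. In set 2 the order was Mycn with 13.3 CPM per kb of peak, then Hmga2 with 8.07, Mecom with 8.02, Meis1 with 7.96, Prdm16 with 7.04, Hlf with 6.52 and Msi2 with 6.44. There the intervals of Hmga2, Mecom and Meis1 overlapped, as did those of Hlf with both Prdm16 and Msi2.

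Per kb of promoter peak the order was different. Meis1 was highest, with 21.2 CPM per kb in set 1 and 21.9 in set 2, then Msi2 with 17.2 and 17.0 and Mycn with 16.7 and 13.3. Hmga2 was lowest with 6.05 and 5.83, and it was the member whose promoter peak was less dense than its other peaks, which held 9.52 and 8.90 CPM per kb. The Mecom promoter peaks, with 9.79 and 8.66, were close to its other peaks, with 9.35 and 7.80.

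The loci were long and held many peaks outside their promoters. Across protein-coding loci the median number of peaks was 3 and the 95th percentile 13, while Msi2 had 62, Mecom 52, Prdm16 50, Meis1 36, Hlf 23 and Hmga2 12. Member genes other than Mycn spanned from 54.4 kb (Hlf) to 597 kb (Mecom), and per 100 kb of locus Hlf had the most peaks with 38.7 and Mecom the fewest with 8.64. Promoter peaks held 24.7% of all member counts. By gene the share was 24.96% in Meis1, 27.1% in Mecom, 12.1% in Prdm16, 38.9% in Hlf, 9.23% in Msi2, 19.4% in Hmga2 and 100% in Mycn. The median over all loci was 84.8%. That median also counts peaks near a start of any other protein-coding gene, while the member shares count only starts of the gene itself.

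At single peaks, 179 of the 236 member peaks had at least 20 counts and could be compared, 57 had fewer, and 10 of those had no count in any cell. A peak was called where the log2 ratio of CPM, with 1 CPM added to each set, passed 1.5-fold. By this rule 27 member peaks (15.1%) were higher in set 1 and 18 (10.1%) were higher in set 2. Over all 79625 peaks of at least 20 counts the shares were 14.8% and 15.3%. The share of member peaks higher in set 1 was thus near the background, and the share higher in set 2 was below it, with no test made of that difference. The median log2 ratio was 0.06 over the member peaks and 0.02 over all peaks.

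None of the 9 promoter peaks was called in either direction, against 6.17% and 5.11% of all protein-coding promoter peaks. All 45 called member peaks lay outside promoters, 27 and 18 of 170, or 15.9% and 10.6%, where the background was 17.0% and 17.9%. By gene, called peaks in the 2 directions numbered 9 and 3 of 47 in Mecom, 6 and 7 of 37 in Msi2, 5 and 3 of 37 in Prdm16, 4 and 3 of 30 in Meis1, 2 and 1 of 16 in Hlf and 1 and 1 of 11 in Hmga2. Among the 86 member peaks with at least 100 counts, 5 passed 2-fold in favour of set 1 and 1 in favour of set 2 with 1 CPM added, against 4.11% and 4.34% of all 44312 such peaks.

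**Figure D2:**
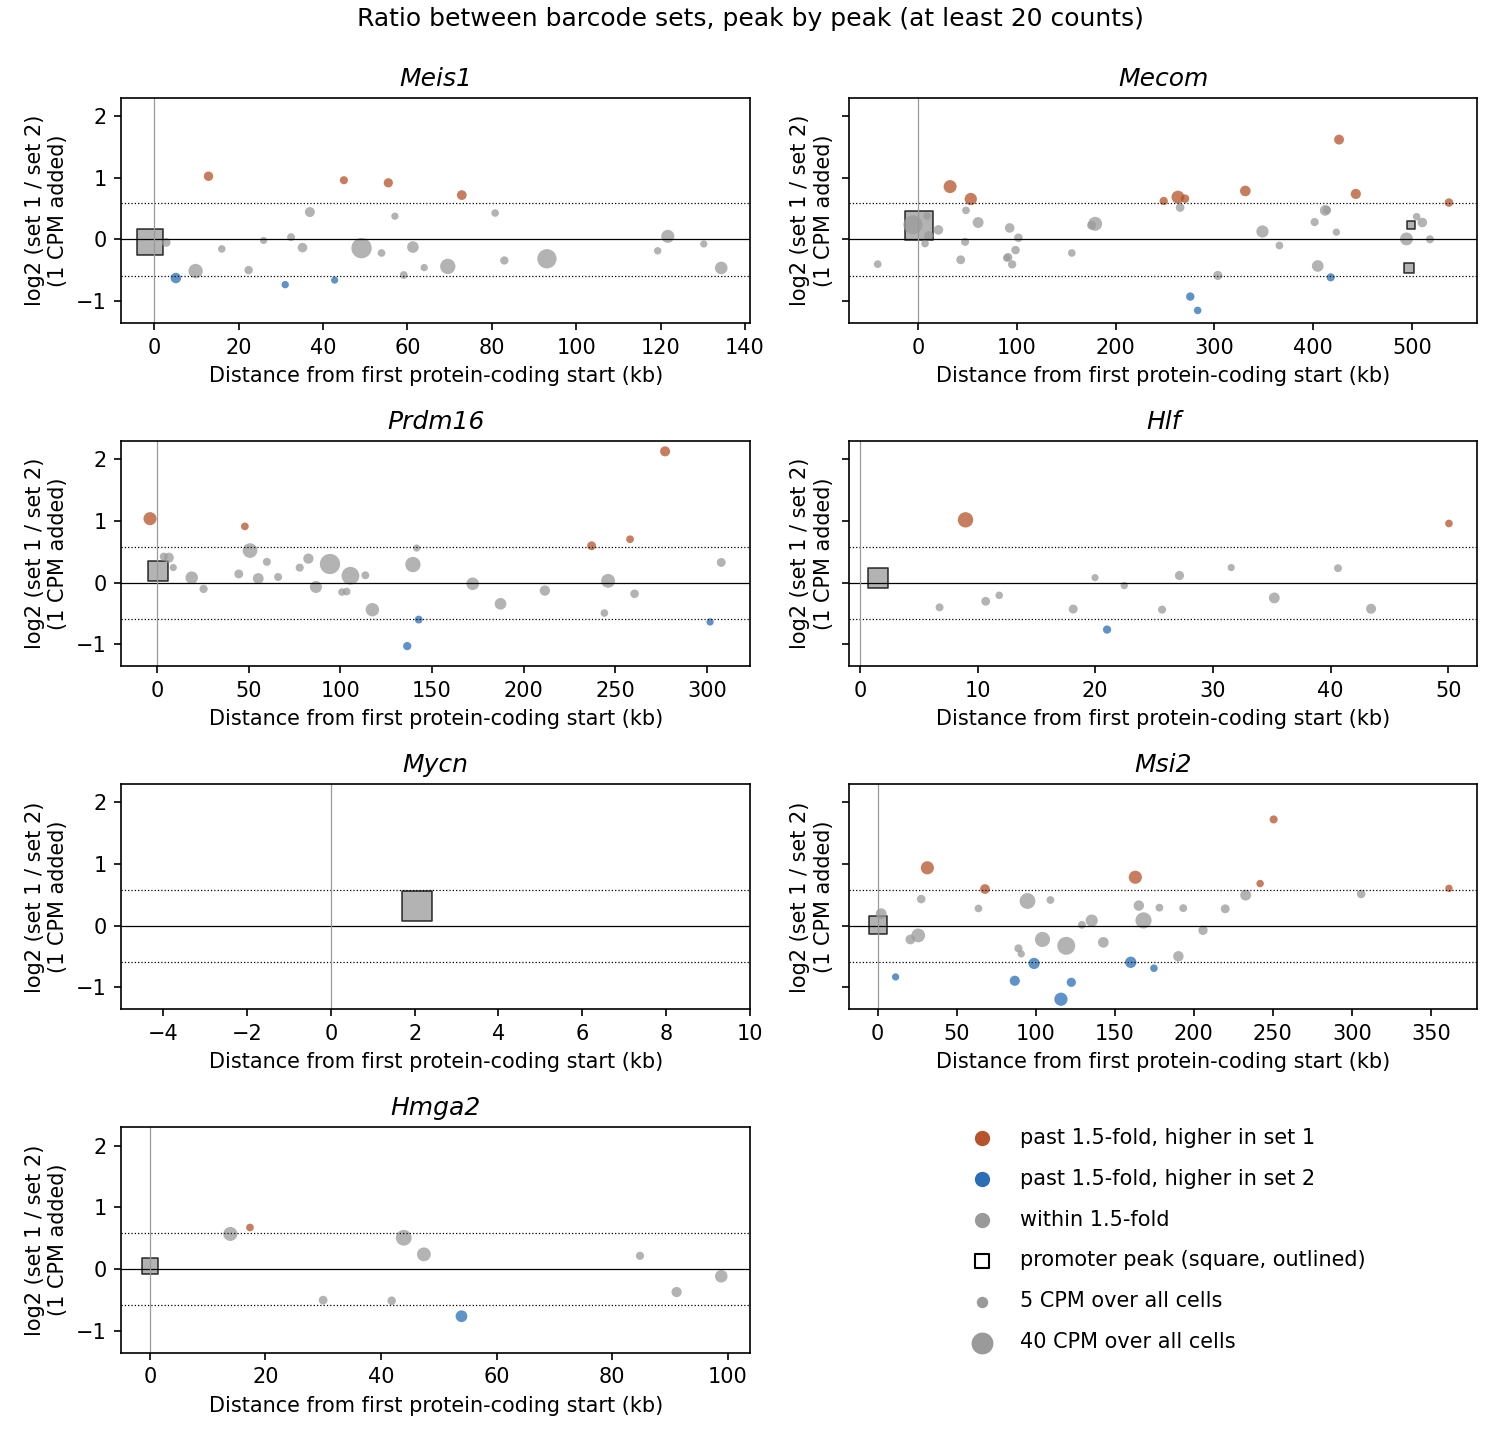
Log2 ratio of set 1 over set 2, with 1 CPM added to each, of every member peak with at least 20 counts, against the distance of its centre from the first protein-coding start of the gene in kb, positive into the gene. Squares with an outline are promoter peaks, circles are other peaks, the area of a symbol grows with CPM over all cells and dotted lines mark 1.5-fold. Promoter peaks lie between the dotted lines in all 7 genes, and called peaks of both directions lie within Meis1, Mecom, Prdm16, Hlf, Msi2 and Hmga2.

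In Meis1 the most accessible peaks outside the promoter were in introns 7 and 8. The peak at chr11:18968871-18970815 held 40.8 CPM in set 1 and 45.1 in set 2, and the peak at chr11:18924076-18927755 held 34.3 and 42.9. Both were within 1.5-fold, and the second was higher in set 2 with intervals that did not overlap (31.2 to 37.7 and 38.9 to 47.2). The peak whose sequence is given above, in intron 6 at chr11:19005604-19006590 and 12.9 kb from the start, went the opposite way to the locus. It held 7.05 CPM (5.68 to 8.65) in set 1 and 2.95 CPM (1.98 to 4.24) in set 2, 2.39-fold (1.56 to 3.76), and had a count in 45 of 818 and 17 of 636 cells. It also overlaps the annotated gene 2610001A08Rik. A further intron 7 peak at chr11:18962930-18964068 held 6.28 and 2.85 CPM, 2.20-fold (1.42 to 3.52), which was within 2-fold with 1 CPM added.

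Mecom has 11 annotated protein-coding starts spread over its locus, which separate the long MDS1-EVI1 form, carrying the PR domain, from the shorter EVI1 forms that lack it. The large peak at chr3:30504153-30513166 covered the 3 outermost starts and held 95.9 CPM (90.7 to 101) in set 1 and 81.6 CPM (76.0 to 87.4) in set 2. The inner starts near 30013156 had the peak chr3:30012161-30013436, with 6.28 CPM (4.997 to 7.80) in set 1 and 9.06 CPM (7.28 to 11.2) in set 2, and the small peak chr3:30010652-30011052, with 2.45 and 1.93 CPM. The 2 larger promoter peaks thus leaned in opposite directions, 1.18-fold (1.08 to 1.29) toward set 1 at the outer starts and 1.44-fold (1.06 to 1.97) toward set 2 at the inner ones. At equal depth the inner peak was open in 2.27% of set 1 cells and 1.96% of set 2 cells, which do not differ beyond their intervals. No peak lay within 1000 bp of the other 5 starts.

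Intron 1 of Mecom held 41 of its 49 peaks outside promoters and, with 231 CPM in set 1 and 192 in set 2, most of their counts, a log2 ratio of 0.27 (0.19 to 0.35). Of its 38 peaks that could be compared, 8 were called higher in set 1 and 3 in set 2. The peak at chr3:30083259-30084132, shown above with its RUNX word, lay 426 kb from the outermost start. It held 9.27 CPM (7.69 to 11.1) in set 1 and 2.34 CPM (1.48 to 3.51) in set 2, 3.96-fold (2.52 to 6.48), and had a count in 59 of 818 cells against 14 of 636. A peak 32.6 kb from the start, chr3:30476884-30477489, held 18.2 and 9.57 CPM, 1.90-fold (1.49 to 2.44). The 2 most accessible Mecom peaks outside promoters were within 1.5-fold. The peak chr3:30513794-30515858, with 39.2 and 33.1 CPM, lay before the outermost protein-coding start and not in intron 1. The peak chr3:30329966-30330947 of intron 1 held 18.8 and 15.6 CPM.

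In Prdm16 the promoter peak at chr4:154634323-154638828 held 43.5 CPM (40.02 to 47.3) in set 1 and 38.0 CPM (34.2 to 42.0) in set 2. The intron 4 peak at chr4:154359327-154360260, 277 kb into the gene, had the highest ratio of the 86 member peaks with at least 100 counts. It held 10.5 CPM (8.81 to 12.4) in set 1 and 1.63 CPM (0.931 to 2.65) in set 2, 6.44-fold (3.83 to 11.6). It had a count in 66 of 818 cells of set 1 and in 8 of 636 of set 2, and the 2 intervals were far apart. It was the only peak in intron 4, and its GC content of 56.0% over the printed bases exceeded that of the other 5 windows, from 37.7% to 49.0%.

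The peak just upstream of Prdm16, chr4:154639428-154641909, held 19.2 CPM (16.9 to 21.8) in set 1 and 8.86 CPM (7.10 to 10.9) in set 2, 2.17-fold (1.69 to 2.80). It overlaps Gm13111, annotated beside Prdm16, so its counts cannot be assigned to either gene. At equal depth its log2 ratio was 0.70 (-0.03 to 1.46), and cells with a count made up 5.61% and 4.11%, so this difference was not separable from counting error there. The 2 most accessible intronic peaks, chr4:154540826-154544225 with 46.1 and 37.2 CPM and chr4:154530275-154532493 with 32.6 and 30.1 CPM, were within 1.5-fold.

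In Hlf the differing peak was also the most accessible peak outside the promoter. The peak at chr11:90381038-90382798 in intron 2, 8.98 kb from the start, held 28.7 CPM (25.8 to 31.7) in set 1 and 13.6 CPM (11.4 to 16.2) in set 2, 2.10-fold (1.72 to 2.58). It had a count in 155 of 818 cells (18.9%) and in 56 of 636 (8.81%). The promoter peak at chr11:90387432-90391327, next to it, held 45.2 CPM (41.6 to 49.0) and 43.0 CPM (39.0 to 47.3), with overlapping intervals. The next named peaks of intron 2 were lower in set 1, chr11:90346626-90348277 with 5.59 and 7.84 CPM and chr11:90354499-90356849 with 7.82 and 9.47 CPM, neither past 1.5-fold.

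In Msi2 the promoter was even in CPM, with 31.1 CPM (28.2 to 34.3) in set 1 and 30.8 CPM (27.4 to 34.4) in set 2 at chr11:88717613-88719418. At equal depth this promoter peak was open in 8.28% of set 1 cells (6.41 to 10.5) and 12.1% of set 2 cells (9.55 to 15.1). These 2 intervals overlapped. Intron 5 held the peak that favoured set 2 past 2-fold with 1 CPM added. The peak at chr11:88601997-88603210, shown above with its PAR bZIP word, held 9.42 CPM (7.83 to 11.2) in set 1 and 22.8 CPM (19.9 to 26.0) in set 2, 2.42-fold (1.93 to 3.04) higher in set 2. It had a count in 50 of 818 and 96 of 636 cells. The nearby peak chr11:88595635-88596427 held 3.14 and 6.82 CPM, 2.17-fold (1.45 to 3.29) higher in set 2 but within 2-fold with 1 CPM added, while the most accessible peak between them, chr11:88597911-88600564, held 28.9 and 36.5 CPM and was within 1.5-fold.

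The introns of Msi2 differed in direction. Intron 5, with 27 peaks, summed to 164 CPM in set 1 and 185 in set 2, a log2 ratio of -0.17 (-0.26 to -0.08), and intron 6, with 19 peaks, to 115 and 109 CPM, 0.08 (-0.03 to 0.20). Its most accessible peak, chr11:88548936-88551785, held 25.9 and 24.3 CPM. Intron 7 was chosen after its values were seen. Its 8 weak peaks summed to 7.28 CPM in set 1 and 2.55 in set 2, a log2 ratio of 1.52 (0.87 to 2.21).

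In Hmga2 the peaks lay in intron 3, a long intron often broken in tumors, and at the promoter. The promoter peak at chr10:120474389-120478490 held 24.8 CPM (22.2 to 27.7) in set 1 and 23.9 CPM (20.97 to 27.2) in set 2. The peaks in the intron moved in both directions, with chr10:120421898-120423193 at 8.20 and 14.7 CPM, 1.79-fold (1.38 to 2.32) higher in set 2. The most accessible peaks leaned to set 1, chr10:120431397-120433662 with 27.4 and 19.0 CPM, 1.44-fold (1.204 to 1.73), and chr10:120461567-120463527, which overlaps an annotated exon, with 20.8 and 13.7 CPM, 1.52-fold (1.23 to 1.88). Neither passed the call with 1 CPM added.

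To compare shares of cells between the sets, cells were thinned to 4899 counts each, which kept 749 cells of set 1 and 560 of set 2 and left out 69 and 76. At this depth a count was found anywhere in the Mecom locus in 74.0% of set 1 cells (70.7 to 77.1) and 64.3% of set 2 cells (60.2 to 68.3). The corresponding shares were 32.7% (29.4 to 36.2) and 25% (21.5 to 28.8) for Mycn. These were the 2 loci whose intervals did not overlap. The other 5 loci had overlapping intervals, with 64.0% and 67.3% for Meis1, 69.8% and 69.1% for Prdm16, 31.9% and 32.5% for Hlf, 66.9% and 65.0% for Msi2 and 37.4% and 34.3% for Hmga2. Without thinning, Mecom was open in 85.6% and 75.5% of cells and Mycn in 46.2% and 38.8%.

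Among the 6 peaks past 2-fold, 3 had intervals apart at equal depth. The 6 peaks were chosen by their ratio in these same counts, so the thinned values are no separate evidence. The Prdm16 intron 4 peak was open in 3.87% of set 1 cells (2.61 to 5.51) and 0.714% of set 2 cells (0.195 to 1.82). The Hlf intron 2 peak was open in 9.88% (7.84 to 12.2) and 4.11% (2.62 to 6.10), and the Msi2 intron 5 peak in 2.67% (1.64 to 4.09) and 9.11% (6.86 to 11.8). For the peaks in Meis1, 2.80% and 1.25%, in Mecom, 2.80% and 0.893%, and upstream of Prdm16, the intervals of the shares overlapped. The log2 ratio of counts at equal depth still excluded 0 for Mecom, at 1.64 (0.32 to 3.21), and for Meis1, at 1.34 (0.16 to 2.68). Unthinned shares were 8.07% and 1.26% for Prdm16 intron 4 and 6.11% and 15.1% for Msi2 intron 5. By comparison, the median peak outside promoters was open in 1.202% and 1.25% of cells at this depth.

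**Figure D3:**
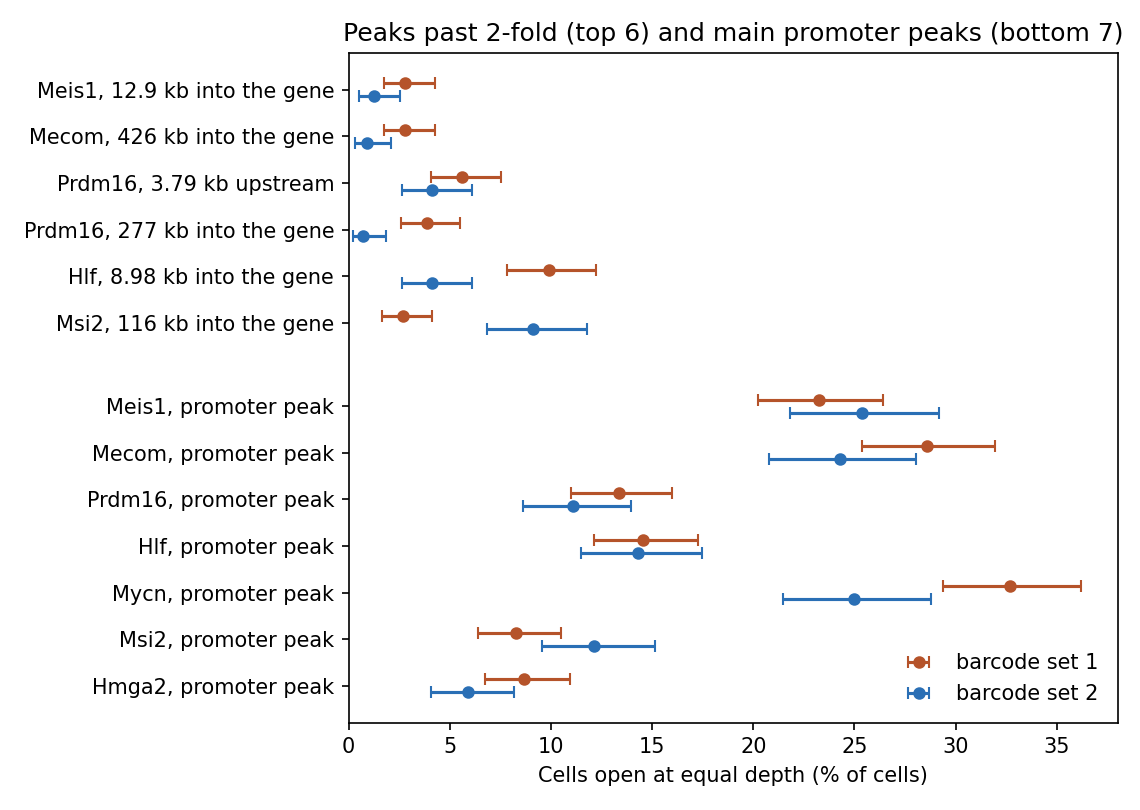
Percent of cells with at least 1 count at 4899 counts per cell, in barcode set 1 (749 cells) and set 2 (560 cells), for the 6 peaks with at least 100 counts past 2-fold with 1 CPM added and for the main promoter peak of each gene. Points are shares and bars are exact 95% Clopper-Pearson intervals. The Msi2 intronic peak, 116 kb into the gene, was open in more cells of set 2, while the Hlf peak 8.98 kb and the Prdm16 peak 277 kb into their genes were open in more cells of set 1.

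Per cell, the median number of member loci with a count was 4 of 7 in both sets, with quartiles of 3 and 5. All 7 loci had a count in 11 of 749 cells (1.47%) and 7 of 560 (1.25%), and none had a count in 2 and 8 cells. The median cell carried 8 and 7 member counts. Spearman's correlation of the locus counts over cells was taken for the 21 pairs of members. In set 1 its median was 0.01, and the pairs ranged from -0.05 to 0.07. In set 2 the median was 0.04, and the pairs ranged from -0.02 to 0.15. In such sparse counts at fixed depth these are too weak to be a finding, and the 253 pairs of partner loci had a median of 0.00 in both sets.

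**Figure D4:**
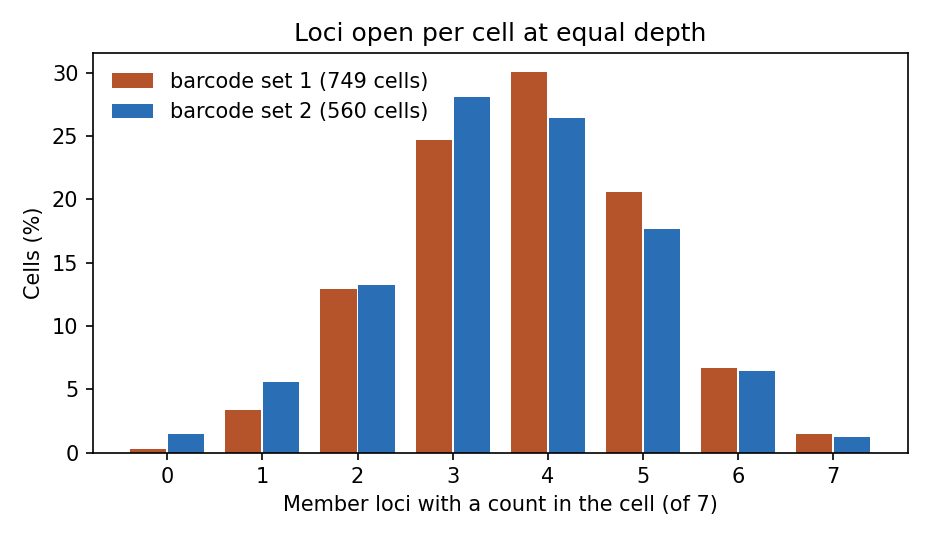
Percent of cells by the number of member loci, of 7, with at least 1 count at equal depth, in barcode set 1 (749 cells) and set 2 (560 cells). The distributions overlap, with 30.0% of set 1 and 26.4% of set 2 cells at 4 loci.

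The known partners and relatives of the members, of which 22 are reported, all had peaks. None differed past 1.5-fold, against the 9.90% of all loci, which were not matched for counts. Their log2 ratios ranged from -0.45 to 0.49 with a median of 0.02. The 5 TALE genes reported, Pbx2, Pbx3, Meis2, Meis3 and Pknox1, had ratios of 0.09 to 0.43 (median 0.20), while the Meis1 locus itself was at -0.14. The 4 PR domain and corepressor genes related to Mecom and Prdm16 ranged from -0.32 to 0.49, the 3 bZIP relatives of Hlf from -0.04 to 0.06 and the 6 genes of the MYC network from -0.17 to 0.03. The 3 genes of the RNA-binding and let-7 group ranged from -0.45 to 0.00, and Hmga1, the relative of Hmga2, stood at 0.18.

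Outside promoters, member peaks were close to other peaks in width and GC content. Median width was 509 bp against 479 bp and median GC content of the central 300 bp was 49.7% against 49.0%. Member promoter peaks were wider, with a median of 3896 bp against 1517 bp, and richer in GC, 70.0% against 61.7%. The word shares below pool both classes. Outside promoters alone, the MYC E-box was in 12.3% against 9.74%, GATA in 4.41% against 2.92% and AP-1 in 10.6% against 15.2%. The words were found in 21 of 236 member peaks for PU.1 (8.90%, against 11.1% of all peaks), 5 for TEAD (2.12% against 3.07%), 18 for RUNX (7.63% against 8.72%) and 10 for GATA (4.24% against 3.16%). The MYC E-box was in 32 (13.6% against 13.1%), a PAR bZIP word in 6 (2.54% against 2.82%), the PBX-MEIS word in 3 (1.27% against 1.58%), the MEIS word in 85 (36.0% against 39.7%) and the AP-1 word in 26 (11.0% against 15.9%). None of the 9 promoter peaks held a PU.1, TEAD, GATA or PAR bZIP word, which were in 13.3%, 5.08%, 4.29% and 4.31% of all promoter peaks, and 4 held the MYC E-box, against 28.7% of all.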

How the data were processed

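Single-cell ATAC-seq libraries of LT-HSCs were processed by the authors with Cell Ranger ATAC 1.2.0 against mm10 (GRCm38), as the submitters' processing notes give it. The authors deposited 2 tables of raw counts per peak and cell barcode, with no normalization stated. The second was not used, since its rows carry no peak names. In the first, all 1454 barcodes were kept and no doublet caller was run, and the 57 cells over 3 times the median counts were removed only as an alternative. No other per-sample column was present.

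Genes, exons and starts were taken from GENCODE M21 (GRCm38.p6), and introns were numbered along the longest protein-coding transcript. Counts of each barcode set were scaled to CPM. Peak ratios were computed over the whole table for peaks holding 20 counts or more, after adding 1 CPM to each set, and called past 1.5-fold. Sums and ratios have exact 95% Poisson and binomial intervals, and shares exact Clopper-Pearson intervals. For shares of cells, each cell was thinned to the 10th percentile, 4899 counts. The calculation of peak ratios and their intervals was checked on simulated counts with known changes. Those counts were drawn independently, without the even values seen here. The check therefore does not cover the narrowness of the intervals stated above. RefSeq promoters matched 7 of 7 genes.

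The members and gene lists were chosen with earlier results of these data known, and 1 marker gene and 1 partner gene are not reported here. Named in each locus were every promoter peak, the 2 other peaks of highest CPM and the 2 peaks of at least 100 counts with the largest absolute ratio. Python 3.11.15, numpy 2.4.6, scipy 1.17.1 and pandas 2.3.3 were used.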

Additional observations from a re-analysis of the deposited data

How the results depend on the processing

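No paired analysis was possible because each group has 1 sample and no label pairs a barcode set with a sample. Of the 180 alternative values, 121 were sorted as the same and 59 as moved, and no called result changed direction. Values were sorted by whether they lay within the 95% counting interval of the main value. The numbers of called peaks have no such interval and were sorted by another rule. Cells thinned to equal depth gave log2 locus ratios of 0.083 for Prdm16, 0.070 for Msi2 and 0.25 for Hmga2. Without cells over 3 times the median, Msi2 was at 0.081, so that both settings turned its sign from -0.03. Counting each peak once per cell gave 0.19 for the Mycn locus and promoter. A promoter window of 5000 bp gave 0.43 for the Prdm16 promoter, since it took in the upstream peak. With that window the share of locus counts in promoter peaks was 28.8% in Meis1, 45.1% in Mecom, 17.2% in Prdm16, 40.9% in Hlf and 11.9% in Msi2. Counted once per cell, it was 19.4% in Meis1, 19.2% in Mecom, 9.89% in Prdm16, 30.8% in Hlf, 8.22% in Msi2 and 17.1% in Hmga2.

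Shares of cells depended on depth. Without thinning, sets 1 and 2 had 75.3% and 76.9% of cells open for Meis1, 85.6% and 75.5% for Mecom, 84.6% and 76.7% for Prdm16, 52.6% and 48.0% for Hlf, 46.2% and 38.8% for Mycn, 81.3% and 77.4% for Msi2, and 52.6% and 50.5% for Hmga2. Thinned to 2 times the depth, they had 82.6% and 84.8% for Meis1, 91.1% and 83.9% for Mecom, 90.2% and 83.4% for Prdm16, 51.7% and 47.4% for Hlf, 48.5% and 41.5% for Mycn, 87.2% and 83.9% for Msi2, and 53.9% and 52.1% for Hmga2.

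Called member peaks, 27 higher in set 1 and 18 in set 2, numbered 9 and 2 with a pseudocount of 5 CPM, or 6.15% against 10.4% of all peaks, and 6 and 3 past 2-fold, or 5.03% against 12.1%. A pseudocount of 0.1 CPM gave 38 and 27, or 36.3% against 38.6%. Counted once per cell, 40 peaks were called, or 22.3% against 30.0%, and 33 of them were the same peaks. In the central 300 bp, words were in 5.51% of member peaks for PU.1, against 6.68% of all peaks. The shares were 0.424% against 1.18% for TEAD, 1.27% against 1.43% for GATA and 5.93% against 5.46% for the MYC E-box. They were 19.1% against 21.5% for MEIS and 6.78% against 8.53% for AP-1. Of alternatives chosen after seeing the data, equal depth gave log2 0.70 for the peak upstream of Prdm16 and -1.74 for the Msi2 intron 5 peak, which was at -1.79 without the deepest cells. The causes of these moves were not tested, except where the construction is named.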
